A study of Mus musculus with 8 samples.

Results

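The genes described here are those of myelin and of the oligodendrocyte lineage, the glial cells that wrap central nervous axons. The list holds 36 gene symbols, given by name with no measured value in the rule, and was drawn up with earlier results of these data known. Of these, 34 were found among the 22180 genes of the deposited table as probe sets with exactly 1 gene symbol. Trf was carried only by a probe set with several symbols and Enpp2 by none, so neither is reported. The 34 genes were grouped by role into 13 structural myelin proteins, 4 genes of myelin lipid synthesis, 5 lineage regulators, 5 genes of precursor and newly formed cells, and 7 other genes of mature oligodendrocytes.

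RNA from total brain was measured on 8 Affymetrix whole-transcript arrays, 1 per sample. Every mouse carried an immunization against MOG, myelin oligodendrocyte glycoprotein, and tissue was collected on day 14, named in the labels as the maximum of disease, so no unimmunized brain is compared here. The 4 groups of 2 arrays were wild-type mice given PBS, wild-type mice given NDP-MSH, C57BL/6Je/e mice (e/e below) given PBS, and e/e mice given NDP-MSH. Wild-type mice had a black coat and e/e mice a yellow one. In e/e mice Mc1r, which pigment cells use to sense alpha-MSH, is inactive. NDP-MSH, a stable alpha-MSH analog, was given by vein on days 8, 10 and 12, with 5 µg for each mouse. The labels give no age, and no source states that the 2 samples of a group came from separate animals, so the p-values reflect only how far these samples spread, which may be technical.

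Myelin is a stack of oligodendrocyte membrane held together by a few abundant proteins and rich in galactolipids. Precursor cells divide under the growth factor receptor encoded by Pdgfra, and a set of transcription factors then takes them through a short premyelinating stage to the myelinating cell. MOG itself is a minor protein of the outermost myelin surface, and immunization with it sets T cells and antibodies against myelin in the model of multiple sclerosis used here.

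Values are taken as log2, and each gene is centred on its median over the 8 arrays, so they carry differences between arrays and no levels, and no gene can be called absent. The single-precision step left in the values places 24 of the 34 genes, among them Mbp, Mog, Cnp and Olig2, on probe sets with a signal of 8 or above before centring. The other 10, among them Opalin, Sox10 and Cspg4, lay at 4 to 8. Over all genes the median of each array lay between -0.0072 and 0.015. Arrays also differed in regional and sex-linked transcripts. The median of 11 cerebellar genes was -1.91 (NDP-MSH 1) and -1.69 (NDP-MSH 2) in treated wild-type mice and between -0.087 and 0.33 on the remaining arrays. That of 6 anterior pituitary genes was 2.98 in the first of that pair and between -0.071 and 0.055 elsewhere. The Y-linked gene Eif2s3y reached 2.04 in e/e PBS 2 and, with NDP-MSH, 2.78 and 2.87 in e/e mice, and lay between -0.19 and 0.018 in the other arrays, e/e PBS 1 included. Xist, the transcript of the inactive X chromosome, lay at -4.46 and -4.56 in treated e/e mice and between -0.82 and 0.67 elsewhere. In e/e PBS 2 it lay at -0.82, so that array held Y-linked signal without the low Xist value of the treated e/e pair.

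**Figure D1:**
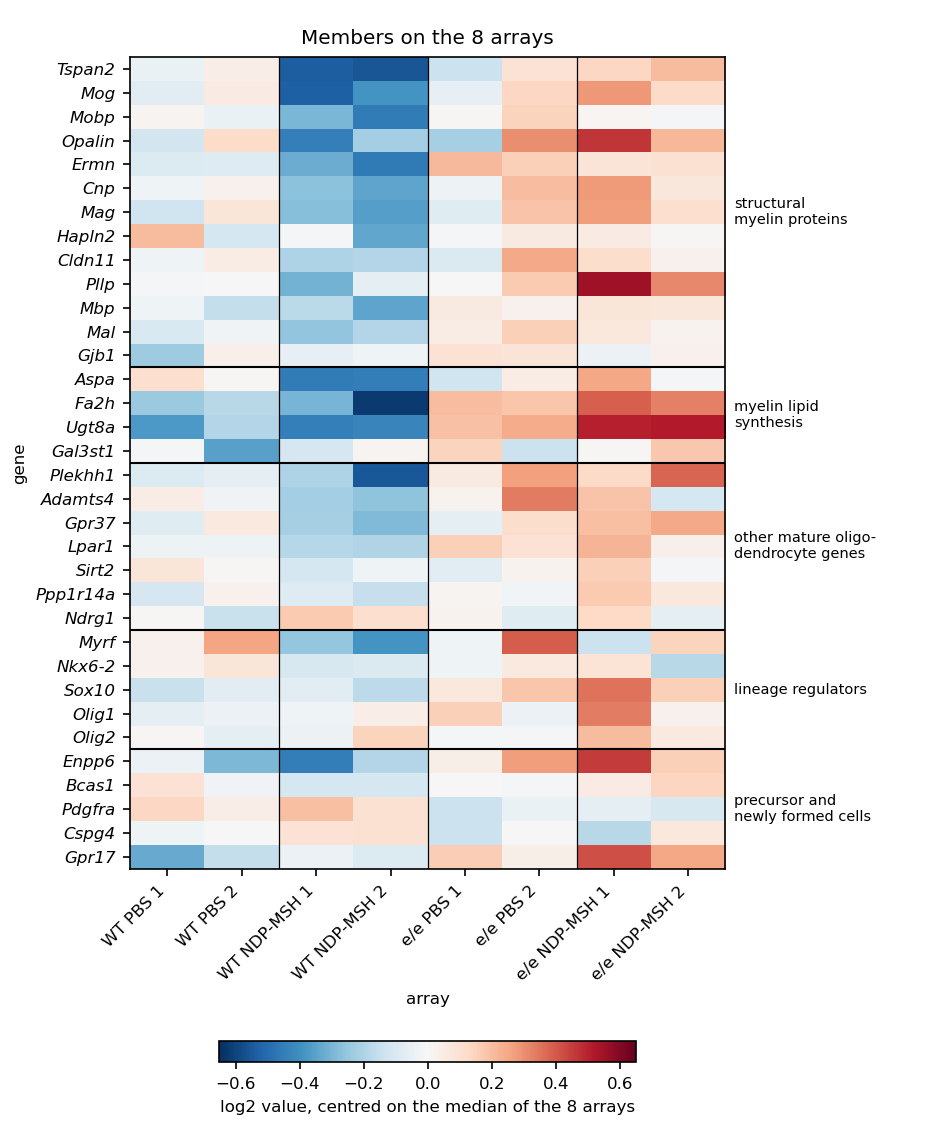
Heat map of the 34 genes (rows, grouped by role and ordered by the wild-type difference) on the 8 arrays (columns), coloured by the log2 value centred on the median of the 8 arrays. Structural myelin proteins are blue in both wild-type NDP-MSH arrays, where Tspan2 lies at -0.54 and -0.56, and Ugt8a and Fa2h are blue in the 4 wild-type and red in the 4 e/e arrays.

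The first comparison of the series asks how NDP-MSH changed brain transcripts of wild-type mice. Genes of mature, myelinating oligodendrocytes mostly lay lower after NDP-MSH. The lineage regulators and the genes of precursor and newly formed cells had medians near 0, with genes on both sides. The difference between these classes was not tested. Of the 34 genes 26 were lower, with a median log2 difference of -0.17, where 45% of all genes were lower, 55% were higher and the median over all genes was 0.018. None of the 34 passed an adjusted p of 0.05 (limma, Benjamini-Hochberg over 22180 genes), a call that 0.176% of all genes reached (0.171% lower and 0.00451% higher), and the smallest adjusted p among the 34 was 0.121. At an unadjusted p under 0.05, 9 of the 34 were lower and 0 higher, beside 5.6% of all genes lower and 6.72% higher. In 22 of the 34 both NDP-MSH arrays lay below both PBS arrays, an arrangement found in 18.9% of all genes, and in 4 both lay above, found in 25.3%. Whether a brain held fewer oligodendrocytes or less of these transcripts per cell cannot be told apart in such tissue RNA. Nor can a different share of brain regions in the samples be told apart from these. Cerebellar genes were low on the same 2 NDP-MSH arrays, with medians of -1.91 and -1.69.

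Structural proteins of myelin lay lower in 12 of 13 cases, with a median of -0.29. Tspan2 encodes a tetraspanin of the myelin membrane. Its values were -0.046 and 0.046 on the PBS arrays and -0.54 and -0.56 on the NDP-MSH arrays, array 1 before array 2 here and below. The pairs did not overlap and each was tight. The log2 difference was -0.55 ± 0.094 (SE, 2 arrays a group, limma adjusted p = 0.121), a 1.46-fold lower value. Mog, the immunizing antigen, lay at -0.071 and 0.055 under PBS and at -0.53 and -0.39 under NDP-MSH, again without overlap. Its log2 difference was -0.45 ± 0.10 (adjusted p = 0.207). Mobp, a small basic protein of compact myelin, lay at 0.018 and -0.042 under PBS and at -0.295 and -0.46 under NDP-MSH, a log2 difference of -0.36 ± 0.086 (adjusted p = 0.227).

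The remaining structural genes followed with smaller differences. Ermn, a cytoskeletal protein of late myelination, differed by -0.31 ± 0.076 on the log2 scale, the enzyme gene Cnp of non-compact myelin by -0.30 ± 0.11, and Mag, the adhesion molecule of the innermost wrap, by -0.29 ± 0.12 (-0.19 without wild-type PBS 2). Opalin, a membrane glycoprotein of oligodendrocytes, had the widest error, -0.33 ± 0.18. Mbp, the basic protein that compacts myelin and one of its most abundant proteins, moved less. It lay at -0.029 and -0.16 under PBS and at -0.17 and -0.34 under NDP-MSH, so the nearest arrays of the 2 groups differed by little. The log2 difference of Mbp was -0.17 ± 0.086 (adjusted p = 0.465), and it was -0.082 without wild-type NDP-MSH 2 and -0.25 without wild-type NDP-MSH 1. Cldn11, the claudin of the radial component of myelin, Mal, Pllp and Hapln2, a link protein of nodes of Ranvier, lay between -0.22 and -0.16. Gjb1, the connexin of oligodendrocyte gap junctions, was the exception among the 13, at 0.060 ± 0.096.

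Among the genes of lipid synthesis, 3 of 4 lay lower, with a median log2 difference of -0.20. Aspa, whose enzyme releases acetate from N-acetylaspartate for lipid synthesis, lay at 0.11 and 0.0091 under PBS and at -0.45 and -0.45 under NDP-MSH. No value of the NDP-MSH pair came near the PBS pair. Its log2 difference was -0.51 ± 0.11 (adjusted p = 0.188). Fa2h, the fatty acid hydroxylase of galactolipids, lay at -0.24 and -0.18 under PBS and at -0.30 and -0.62 under NDP-MSH (difference -0.25 ± 0.11). Ugt8a, the galactosyltransferase that makes galactosylceramide, lay at -0.37 and -0.19 under PBS and at -0.45 and -0.43 under NDP-MSH (difference -0.16 ± 0.081). Both were already below 0 in the PBS arrays. Gal3st1, which sulfates that lipid to sulfatide, differed by 0.14 ± 0.14, with overlapping groups.

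The lineage regulators split. Myrf, the factor that switches on myelin genes in differentiating cells, lay at 0.030 and 0.26 under PBS and at -0.25 and -0.39 under NDP-MSH, a log2 difference of -0.47 ± 0.16 (adjusted p = 0.332). Nkx6-2, a homeodomain factor of mature oligodendrocytes, lay at 0.026 and 0.079 against -0.10 and -0.096 (difference -0.15 ± 0.099). The factors present through the whole lineage lay near 0. Olig2 lay at 0.0063 and -0.060 under PBS and at -0.036 and 0.15 under NDP-MSH, with overlap, and its log2 difference was 0.083 ± 0.090, which turned to -0.0087 without wild-type NDP-MSH 2. Sox10 lay at -0.14 and -0.070 under PBS and at -0.066 and -0.17 under NDP-MSH, a log2 difference of -0.013 ± 0.094 with a 95% interval from -0.23 to 0.21. Its sign turned without wild-type PBS 2 (0.024), without wild-type NDP-MSH 2 (0.040) and after quantile normalization of the centred values (0.022). Olig1 differed by 0.060 ± 0.11.

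Genes of precursor and newly formed cells had a median log2 difference of 0.056, with 3 of 5 higher. Pdgfra, the growth factor receptor of precursors, lay at 0.13 and 0.044 under PBS and at 0.19 and 0.097 under NDP-MSH, so that the groups overlapped. Its difference was 0.056 ± 0.079, and 0.0075 without NDP-MSH array 1 and 0.10 without NDP-MSH array 2. Cspg4, the NG2 proteoglycan of the same cells, lay at -0.030 and 0.0027 under PBS and at 0.094 and 0.098 under NDP-MSH (difference 0.11 ± 0.099). Gpr17, a receptor of the premyelinating stage, lay at -0.33 and -0.15 under PBS and at -0.040 and -0.091 under NDP-MSH. It was higher in both NDP-MSH arrays, against the direction of the myelin genes (difference 0.17 ± 0.096, adjusted p = 0.49). Bcas1 of newly myelinating cells lay at 0.094 and -0.023 against -0.11 and -0.11 and differed by -0.15 ± 0.075, with -0.13 and -0.16 on its 2 probe sets. Enpp6, a choline phosphodiesterase of newly formed oligodendrocytes, differed by -0.15 ± 0.15.

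Of the 7 other genes of mature cells 6 lay lower, with a median log2 difference of -0.16. The orphan receptor Gpr37, expressed in myelinating oligodendrocytes, lay at -0.077 and 0.066 under PBS and at -0.22 and -0.29 under NDP-MSH, a difference of -0.25 ± 0.091 (adjusted p = 0.353). Plekhh1 lay at -0.088 and -0.057 under PBS and at -0.20 and -0.55 under NDP-MSH, with 1 array well below the other (difference -0.30 ± 0.14). Adamts4, a protease of mature oligodendrocytes, Lpar1, a receptor for lysophosphatidic acid, the deacetylase gene Sirt2 and Ppp1r14a lay between -0.25 and -0.076. Ndrg1, a stress-responsive gene also expressed outside oligodendrocytes, lay higher in both NDP-MSH arrays on the mean of its 2 probe sets, 0.17 and 0.11 against 0.0053 and -0.14 (difference 0.21 ± 0.096).

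**Figure D2:**
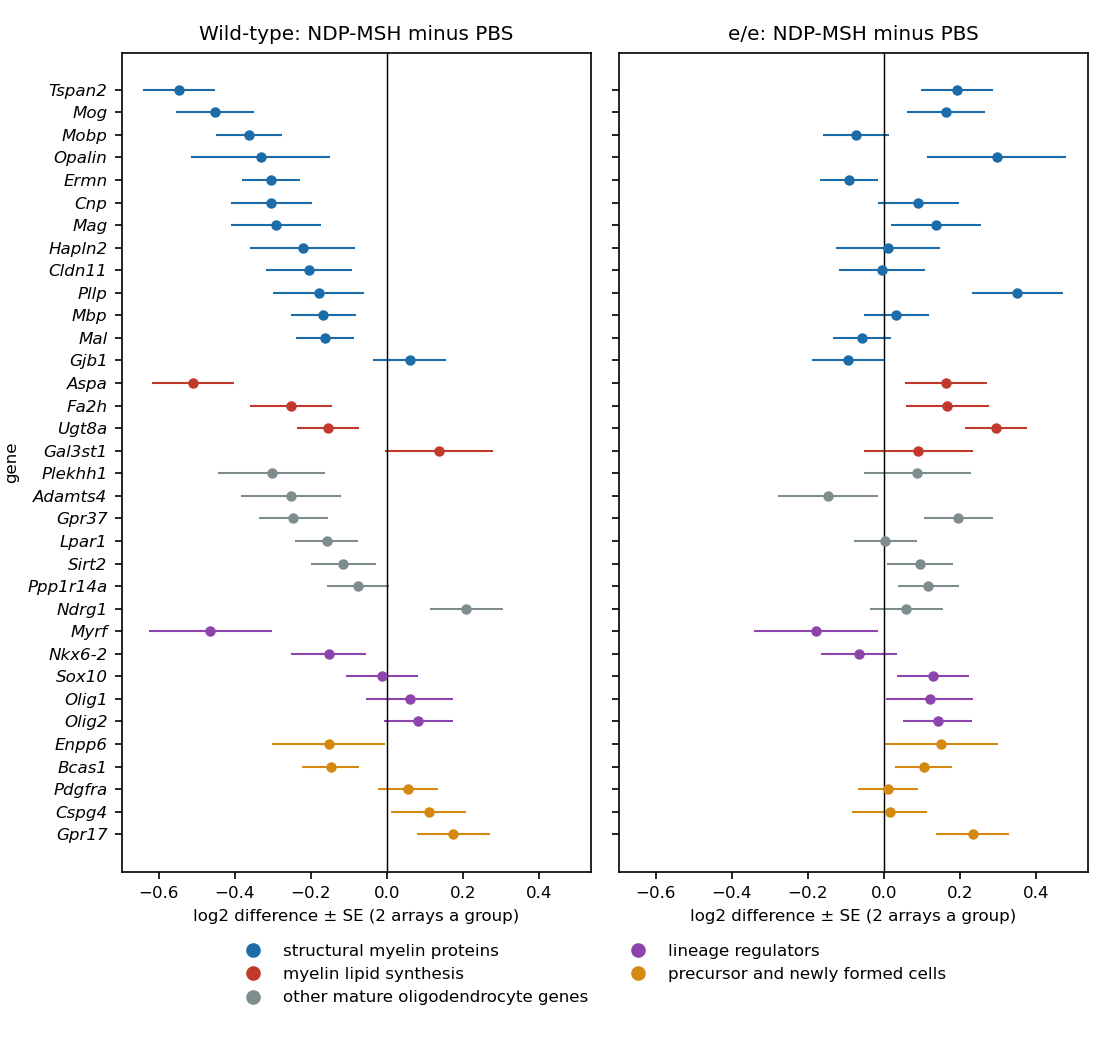
Log2 difference between NDP-MSH and PBS with its SE for each of the 34 genes, in wild-type (left) and e/e mice (right), coloured by role. On the left most structural genes lie below 0, down to -0.55 for Tspan2. Regulator and precursor genes are spread there. Sox10, Olig1, Olig2, Pdgfra and Cspg4 lie between -0.013 and 0.11 and Gpr17 at 0.17. Myrf, Nkx6-2, Enpp6 and Bcas1 lie between -0.47 and -0.15. On the right most genes lie at or above 0.

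By array, the structural genes of wild-type mice had medians of -0.046 and 0.029 under PBS and of -0.28 and -0.34 under NDP-MSH. The median of the lipid genes was -0.13 and -0.19 under PBS and -0.37 and -0.44 under NDP-MSH. That of the lineage regulators was 0.0063 and -0.040 against -0.066 and -0.096, and that of the precursor genes -0.030 and -0.023 against -0.040 and -0.091. The structural median minus the precursor median was -0.24 and -0.25 in treated wild-type mice, and between -0.067 and 0.16 in the other 6 arrays. Both wild-type NDP-MSH arrays therefore showed the same order of classes, with lipid and structural genes lowest. Lipid genes were also the lowest class in both wild-type PBS arrays. By the difference between NDP-MSH and PBS the structural class was lowest, with a median of -0.29 against -0.20 for lipid genes.

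The same 2 arrays were those with low cerebellar genes. Gabra6, the GABA receptor subunit of cerebellar granule cells, fell by 3.02 ± 0.20 on the log2 scale in this comparison (limma adjusted p = 0.00662). Of 11 cerebellar genes 11 lay lower, and 8 of them passed the threshold. In the brainstem list 6 of 9 genes lay lower and 3 higher, with 2 lower and 0 higher at an unadjusted p under 0.05 (limma). Those 2 were the glycine transporter gene Slc6a5, at -1.19 ± 0.20 (adjusted p = 0.115), and Glra1, at -0.95 ± 0.28 (adjusted p = 0.285). The median of the 9 brainstem genes was -0.25 and 0.043 in the 2 NDP-MSH arrays. Without wild-type PBS 2 no gene of the table passed, and 0 to 49 genes did when each array was left out. Of 10 astrocyte genes 0 passed, with a median difference of -0.079, and 3 were lower and 0 higher at an unadjusted p under 0.05 (limma). Among those 3, Slc4a4 and the water channel Aqp4 differed by -0.59 ± 0.15 and -0.48 ± 0.14. The 10 neuronal genes had a median difference of -0.0018. Genes of cortex and hippocampus lay higher in 7 of 9 cases (median 0.45, 4 higher and 1 lower at an unadjusted p under 0.05), and those of the choroid plexus lower in 5 of 5 (median -0.28), with 0 of either past the threshold. Of the Schwann cell markers 4 of 6 were found, with array medians between -0.23 and 0.087. Anterior pituitary genes were high in NDP-MSH array 1 alone of these 4 arrays, and Cdhr1 of the olfactory bulb lay at 2.23 in array 2 and at 0.49 or below elsewhere. The part of these tissue differences in the myelin result was not tested.

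**Figure D3:**
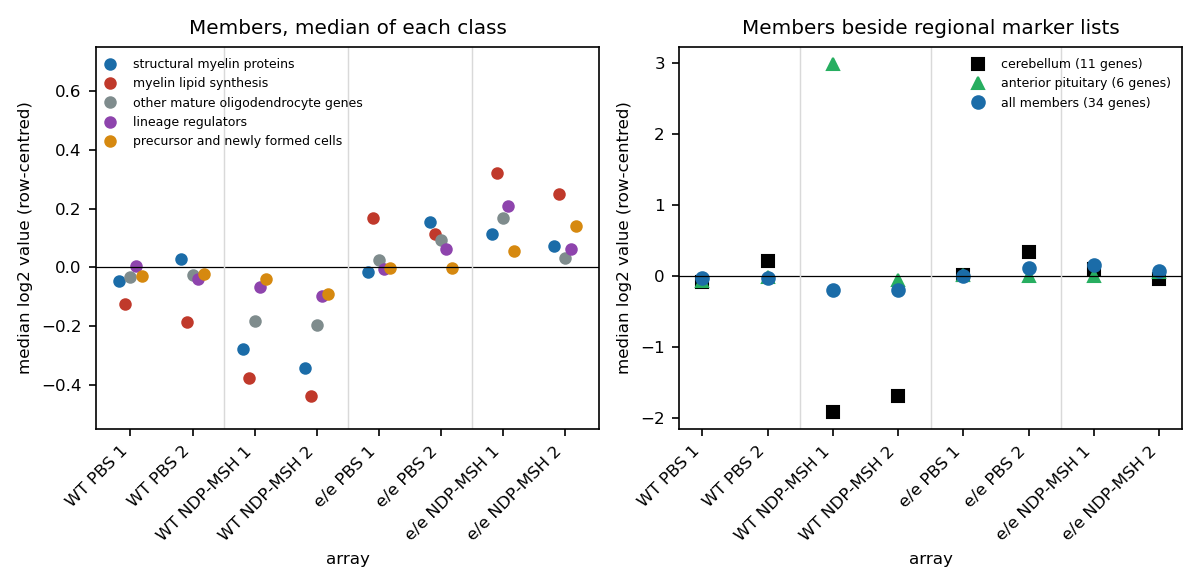
Left, median log2 value of each class of the 34 genes on each array. Right, the median of all 34 genes beside those of 11 cerebellar and 6 anterior pituitary genes, on a wider axis. The structural genes reach -0.28 and -0.34 in treated wild-type mice, where the cerebellar median is -1.91 and -1.69.

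Further oligodendrocyte genes outside the 34 lay lower as well. This list and the next were also chosen with earlier results of these data known, and were read on the same arrays. Of 24 found of 26 listed, 20 were lower, with a median of -0.23, 0 passed, and 9 were lower and 1 higher at an unadjusted p under 0.05. Of all genes 45% were lower, and 5.6% were lower and 6.72% higher at that unadjusted p (limma). Nipal4, a magnesium transporter homolog, differed by -0.44 ± 0.070 (adjusted p = 0.107), the connexin gene Gjc3 by -0.47 ± 0.11 and Tmem125 by -0.32 ± 0.087. Further genes of precursor and newly formed cells had a median of -0.043, with 13 of 21 lower and 0 past the threshold. In that second list Rras2 differed by 0.39 ± 0.13, and Zfp488 and Zfp536, zinc finger genes of the lineage, by -0.27 ± 0.10 and -0.38 ± 0.15.

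Promoters are printed for Tspan2, Aspa, Mog and Mobp, which had the 4 lowest p-values among the listed genes in wild-type mice and lay low on the same arrays. They are the 250 bases before the RefSeq start site on GRCm38.p6, written 5′ to 3′ along the gene, and start windows were found for 25 of the 34 genes. Capitals mark letters that match a Sox core (ACAAAG or ACAATG), an E-box (CAGCTG) or a Myrf motif (CTGGCAC or CTGGTAC), searched on both strands, so a capital run may be the reverse complement. For Tspan2 the upstream of 2 start windows is given.
Tspan2, chr3:102734520-102734769, + strand: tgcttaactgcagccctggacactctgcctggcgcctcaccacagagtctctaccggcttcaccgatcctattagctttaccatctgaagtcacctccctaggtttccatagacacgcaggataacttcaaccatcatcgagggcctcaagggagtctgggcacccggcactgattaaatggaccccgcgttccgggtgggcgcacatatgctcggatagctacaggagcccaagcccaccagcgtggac
Aspa, chr11:73324638-73324887, - strand: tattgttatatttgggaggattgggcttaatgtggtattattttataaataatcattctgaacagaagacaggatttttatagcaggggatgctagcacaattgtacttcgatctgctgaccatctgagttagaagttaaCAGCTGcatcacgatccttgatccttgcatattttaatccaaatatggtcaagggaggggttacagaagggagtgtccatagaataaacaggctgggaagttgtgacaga
Mog, chr17:37023399-37023648, - strand: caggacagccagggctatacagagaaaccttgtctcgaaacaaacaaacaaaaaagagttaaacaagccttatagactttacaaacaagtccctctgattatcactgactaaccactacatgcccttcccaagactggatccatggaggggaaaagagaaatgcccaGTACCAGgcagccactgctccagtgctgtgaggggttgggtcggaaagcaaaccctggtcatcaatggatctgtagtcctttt
Mobp, chr9:120149492-120149741, + strand: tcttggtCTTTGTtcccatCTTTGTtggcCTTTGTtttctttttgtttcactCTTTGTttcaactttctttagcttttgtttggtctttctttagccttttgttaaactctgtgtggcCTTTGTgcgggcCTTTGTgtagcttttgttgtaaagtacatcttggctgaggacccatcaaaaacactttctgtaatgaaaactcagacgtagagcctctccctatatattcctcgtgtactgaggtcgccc

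No motif was common to the 4 windows printed. The Mobp window held 6 Sox cores, all on the opposite strand, the Mog window 1 Myrf motif from 83 to 77 bases before the start, the Aspa window 1 E-box, and this Tspan2 window none of these letters. The other Tspan2 window held 1 Sox core, from 42 to 37 bases before its start. A Sox core was present in 17 of 35 windows of the listed genes and in 25.2% of 32851 windows of all genes, a Myrf motif in 6 of 35 and 5.93%, and the E-box in 2 of 35 and 13%. Several windows of 1 gene can overlap, as in Mag, and no marked letters overlapped another motif in the windows shown. These are letter matches, not measured binding.

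The same treatment was then compared in e/e mice. Here the genes lay level or slightly higher after NDP-MSH, 26 of 34 above 0 with a median of 0.093, where 53.7% of all genes were above 0, 46.3% below, and the median over all genes was 0.0082. None of the 34 passed an adjusted p of 0.05, as did 0% of all genes, and each had an adjusted p of 1 (limma). At an unadjusted p under 0.05, 3 of the 34 were higher and 0 lower, beside 3.56% of all genes in either direction, 1.78% higher and 1.78% lower. Both NDP-MSH arrays lay above both PBS arrays in 10 of 34 genes (16% of all genes) and below in 2 (14.3%). The size of the median rested on single arrays, 0.030 when NDP-MSH array 1 was left out, 0.16 when NDP-MSH array 2 was, and 0.042 when PBS array 1 was. The count of 3 became 1 when NDP-MSH array 1 was left out, and 5 when NDP-MSH array 2 or PBS array 2 was. Both e/e NDP-MSH arrays and e/e PBS 2 carried Y-linked signal and e/e PBS 1 did not, and the part of sex in these values was not tested.

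The values of Ugt8a were 0.19 and 0.24 with PBS and 0.51 and 0.52 with NDP-MSH. The pairs were narrow and did not overlap, with a log2 difference of 0.30 ± 0.081 (unadjusted p = 0.00741, limma adjusted p = 1). Pllp, plasmolipin, a membrane protein of myelin, lay at -0.0031 and 0.17 under PBS and at 0.55 and 0.31 under NDP-MSH (difference 0.35 ± 0.12). Gpr17 lay at 0.16 and 0.040 under PBS and at 0.42 and 0.25 under NDP-MSH (difference 0.23 ± 0.096). With NDP-MSH array 1 left out, the difference was 0.23 for Pllp and 0.15 for Gpr17. Fa2h, the partner enzyme of Ugt8a, lay at 0.20 and 0.18 under PBS and at 0.39 and 0.33 under NDP-MSH, also without overlap. The genes with the smallest p in wild-type mice lay on both sides of 0 here. Tspan2 differed by 0.19 ± 0.094, Mog by 0.16 ± 0.10 and Aspa by 0.16 ± 0.11, while Mobp differed by -0.073 ± 0.086 and Ermn by -0.091 ± 0.076. Tspan2 lay at -0.14 and 0.094 under PBS and at 0.13 and 0.21 under NDP-MSH. Mog lay at -0.055 and 0.13 against 0.28 and 0.12, Aspa at -0.13 and 0.048 against 0.25 and -0.0091, and Mobp at 0.0081 and 0.14 against 0.013 and -0.0081. The groups of these last 3 overlapped. Mbp lay at 0.060 and 0.029 against 0.079 and 0.074 (difference 0.032 ± 0.086). Myrf, the differentiation factor, lay at -0.030 and 0.39 against -0.14 and 0.15, with 1 PBS array far above the other (difference -0.18 ± 0.16). Olig2 lay at -0.0063 and -0.0079 against 0.21 and 0.062, Sox10 at 0.066 and 0.18 against 0.35 and 0.15, and Nkx6-2 at -0.026 and 0.063 against 0.088 and -0.18. Of these lineage factors only Olig2 had groups that did not overlap. Pdgfra lay at -0.14 and -0.044 against -0.056 and -0.11 (difference 0.010 ± 0.079), Cspg4 at -0.14 and -0.0027 against -0.18 and 0.066 (difference 0.015 ± 0.099), and Bcas1 at -0.0020 and -0.012 against 0.054 and 0.14. Among the other mature genes, Gpr37 lay at -0.066 and 0.11 against 0.19 and 0.25, Plekhh1 at 0.057 and 0.27 against 0.12 and 0.38, and Ndrg1 at 0.025 and -0.078 against 0.13 and -0.063. Only Gpr37 of these 3 had groups that did not overlap. By class the medians were 0.032 for structural genes, 0.17 for lipid synthesis, 0.12 for lineage regulators, 0.10 for precursor genes and 0.088 for other mature genes. Markers of infiltrating and activated myeloid cells differed in the other direction, with a median of -0.67, and their medians by array were -0.77 and 0.13 under PBS and -0.96 and -0.97 under NDP-MSH. Their part in the oligodendrocyte values was not tested.

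A test of the interaction took the NDP-MSH difference of wild-type mice minus that of e/e mice. For 29 of the 34 genes this was below 0, with a median of -0.21, where 47.2% of all genes were below 0, 52.8% above, and the median of all genes was 0.011. None passed an adjusted p of 0.05, as did 0% of all genes (limma, smallest adjusted p = 0.343 among the 34). At an unadjusted p under 0.05 12 of the 34 were below 0 and 0 above, beside 4.05% and 3.67% of all genes, 7.71% in all. The 12 included 7 structural genes, 3 of the 4 lipid genes, 1 precursor gene, 1 other mature gene and 0 of the 5 lineage regulators. Leaving out wild-type NDP-MSH 2 or e/e PBS 1 brought the count to 7, and leaving out e/e NDP-MSH 1 to 6. Tspan2 gave -0.74 ± 0.13, Aspa -0.67 ± 0.15, Mog -0.62 ± 0.15 and Ugt8a -0.45 ± 0.11 (adjusted p = 0.343, 0.416, 0.43 and 0.452). Olig2 gave -0.060 ± 0.13, Pdgfra 0.046 ± 0.11 and Cspg4 0.095 ± 0.14, with 95% intervals from -0.36 to 0.24, from -0.21 to 0.31 and from -0.23 to 0.42. Cerebellar genes, low in treated wild-type mice, entered this difference in the same way, with a list median of -1.73.

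Between the genotypes under PBS, Ugt8a, Fa2h and a few other genes lay higher in e/e mice. Of the 34 genes 26 were higher, with a median of 0.081, where 50.1% of all genes were higher, 49.9% lower, and the median of all genes was 0.0002. None passed an adjusted p of 0.05, as did 0% of all genes (limma, smallest adjusted p = 0.839 among the 34). At an unadjusted p under 0.05 5 of the 34 were higher and 0 lower, beside 2.35% and 2.56% of all genes, 4.91% in all. In 12 both e/e arrays lay above both wild-type arrays (17.4% of all genes), and in Pdgfra both lay below (16.7%). Those 5 were Ugt8a (0.50 ± 0.081), Fa2h (0.40 ± 0.11), Gpr17 (0.34 ± 0.096), Ermn (0.27 ± 0.076) and Sox10 (0.23 ± 0.094). Of the other lipid genes, Gal3st1 differed by 0.18 ± 0.14 and Aspa by -0.10 ± 0.11, both with overlapping groups. Myeloid markers were lower in 8 of 8 cases (median -0.54) and those of homeostatic microglia in 6 of 6 (median -0.35). In limma 0 passed, 3 of each were lower at an unadjusted p under 0.05, and their part was not tested. The same control arrays enter the NDP-MSH comparisons, so these values are not independent of them. Leaving out e/e PBS 2, the only PBS array with Y-linked signal, gave a median of 0.016, and leaving out e/e PBS 1 gave 0.15. The part of sex in these values was not tested.

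After these values were seen, the 4 e/e arrays were also set against the 4 wild-type arrays over both treatments. In this comparison 31 of the 34 genes lay higher in e/e mice and 3 lower (48.3% and 51.7% of all genes), with a median of 0.23. At an unadjusted p under 0.05, 21 were higher and 1 lower, beside 5.72% and 6.46% of all genes. The low values of the wild-type NDP-MSH arrays enter it. Immune markers lay the other way: 8 of 8 genes of infiltrating and activated myeloid cells were lower in e/e mice (median -0.80), 6 of 6 of homeostatic microglia (median -0.28) and 7 of 7 of T cells (median -0.23). In limma 0 of them passed, and 8, 5 and 3 were lower at an unadjusted p under 0.05. Y-linked signal was high in 3 of the 4 e/e arrays and in 0 of the 4 wild-type arrays. The part of immune cells and of sex in these values was not tested. Ugt8a was then higher in e/e mice past the threshold, by 0.72 ± 0.057 on the log2 scale, 1.65-fold (limma adjusted p = 0.0295 over 22180 genes, of which 0.0316% passed). Its 4 wild-type values ran from -0.45 to -0.19 and its 4 e/e values from 0.19 to 0.52. The genotypes did not overlap, and the lowest e/e value was that of PBS array 1, the e/e array with no Y-linked signal. The adjusted p (limma) stayed under 0.05 in 8 of 16 alternative settings. It was 0.0679 with a block for the replicate number and 0.115 after quantile normalization of the centred values. The gene also did not pass when any array of the wild-type groups or of treated e/e mice was left out. Its log2 difference lay between 0.68 and 0.77 without each array in turn. Of the 7 genes that passed in this comparison, Gabra6, Cbln3 and Car8 were cerebellar genes, low in treated wild-type mice.

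The 250 bases before the RefSeq start of Ugt8a (GRCm38.p6) are printed because this gene passed. The window held none of the motifs searched.
Ugt8a, chr3:125938653-125938902, - strand: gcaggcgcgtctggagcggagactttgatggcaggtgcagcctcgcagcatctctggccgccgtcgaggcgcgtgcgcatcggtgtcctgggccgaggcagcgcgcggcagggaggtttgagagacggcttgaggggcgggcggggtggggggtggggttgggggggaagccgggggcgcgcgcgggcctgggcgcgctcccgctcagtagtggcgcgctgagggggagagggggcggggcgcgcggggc

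Fa2h, which acts beside Ugt8a in making hydroxylated galactosylceramide, ran from -0.62 to -0.18 in wild-type and from 0.18 to 0.39 in e/e mice, a log2 difference of 0.61 ± 0.077 that did not pass (adjusted p = 0.0693). Ermn lay between -0.46 and -0.084 against 0.084 to 0.21 (difference 0.38 ± 0.053, adjusted p = 0.0719). Fa2h and Ermn passed at a signal of 8 or above (adjusted p = 0.027 and 0.0329) and when PBS array 2 of e/e mice was left out (0.0251 and 0.0375). Gpr17 lay between -0.33 and -0.040 against 0.040 to 0.42 (difference 0.37 ± 0.068), and Sox10 between -0.17 and -0.066 against 0.066 to 0.35 (difference 0.30 ± 0.066). In all, 10 of the 34 genes lay higher in every e/e array than in any wild-type array (2.58% of all genes). Pdgfra lay lower in every e/e array (2.57% of all genes), at -0.14 to -0.044 against 0.044 to 0.19 (difference -0.20 ± 0.055, adjusted p = 0.213). Gal3st1, the next enzyme after Ugt8a, differed by 0.16 ± 0.10, and Aspa by 0.24 ± 0.076 with overlapping genotypes. The innermost values of the 2 genotypes mirror each other about 0 because each gene was centred on the median of the 8 arrays.

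**Figure D4:**
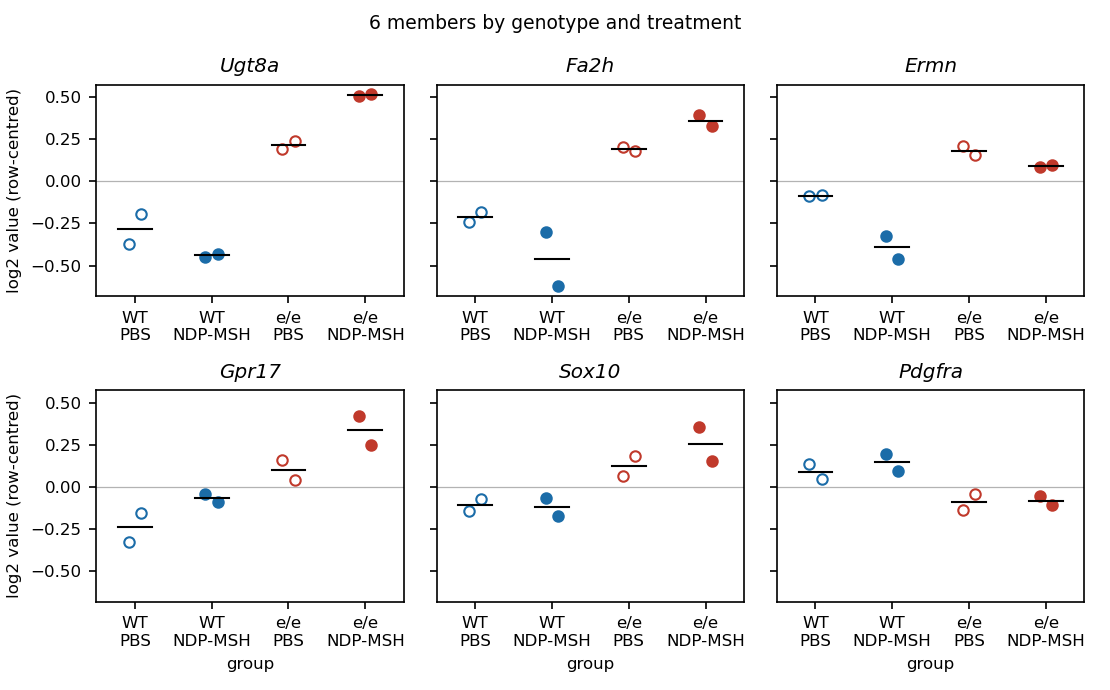
Log2 value (centred on the median of the 8 arrays) of 6 genes in the 4 groups, 2 arrays each as points (open for PBS, filled for NDP-MSH, blue for wild-type, red for e/e) with the group mean as a line. Ugt8a, Fa2h, Ermn, Gpr17 and Sox10 are higher in every e/e array than in any wild-type array, and Pdgfra is lower.

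Over all 8 arrays, 25 of the 34 genes had their lowest value in a wild-type NDP-MSH array, 10 in array 1 and 15 in array 2. The highest value fell in an e/e NDP-MSH array for 23, of which 17 were in array 1. The median of the 34 genes was -0.031 and -0.023 in wild-type PBS 1 and 2, -0.20 in both wild-type NDP-MSH arrays, 0.0031 and 0.10 in e/e mice under PBS, and 0.16 and 0.074 under NDP-MSH. The e/e pairs were therefore further apart than the wild-type pairs.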

How the data were processed

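The deposited table held 33793 probe sets on 8 arrays. Its values are the authors' processed values, taken as log2. No source used here states the log base, summarisation, normalization or filters. Per the labels' protocols, biotin-labelled cDNA was hybridised to Affymetrix arrays (WT Plus kit). Every row was centred on its median (largest absolute row median 5e-07). Names came from GEO's annotation of the platform: 23521 had 1 gene symbol, 1814 several and 8458 none. Probe sets of a gene were averaged, with no filter. All 8 arrays entered 1 linear model with a mean for each group (4 residual and 3.45 prior degrees of freedom), fitted with limma 3.58.1 in R 4.3.3, with moderated two-sided tests, Benjamini-Hochberg adjustment over 22180 genes and a threshold of 0.05. The number of arrays limits the precision. The fit was also run on simulated arrays of independent noise with planted changes, which checks the code only. Those arrays held none of the regional or sex-linked differences seen here. Signal classes before centring were read from the single-precision step in the values (tolerance 0.05 of a step), a reading that rests on base 2. Promoter windows came from RefSeq (GRCm38.p6).

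The listed genes and the further lists were chosen with earlier results of these data known. Values on all 8 arrays are given for Mbp, Mog, Olig2, Sox10, Pdgfra and Cspg4, and for up to 3 genes per class with the smallest p in either NDP-MSH comparison. From other lists at most 3 genes are named by the same p, and Gabra6, Prl, Cdhr1, Xist and Eif2s3y where they bear on a result. Cbln3, Car8 and the other named members were chosen after their values were seen. Alternatives tried were a block for the replicate number, weights per array, quantile normalization of the centred values, subtraction of array medians, a fit to the compared arrays alone, each probe set by itself, genes with 1 probe set, a signal of 8 or above, robust moderation, and leaving out each array. The comparison of genotypes over both treatments was added after seeing the data. Batches such as scan date were not analysed here. Figures were drawn with matplotlib 3.10.9.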

Additional observations from a re-analysis of the deposited data

How the results depend on the processing

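In the 4 comparisons of the design, the count of listed genes past the threshold was 0 under every alternative run, from single arrays left out to the replicate block. Their median log2 difference in wild-type mice lay between -0.18 and -0.16 without each array in turn, and at -0.21 with only signals of 8 or above, where 24 genes were left. The same median lay between 0.030 and 0.16 in e/e mice, between -0.26 and -0.18 for the difference of effects, and between 0.016 and 0.15 for the genotypes under PBS when each array was left out, and these kept their sign. In the comparison of genotypes over both treatments, 1 gene passed in the main setting and 0 with the replicate block. The count was 0 after quantile normalization of the centred values and 3 at a signal of 8 or above. It also changed when single arrays were left out. The cause of these changes was not tested. In wild-type mice the sign turned for Sox10, to 0.022 after quantile normalization of the centred values. It also turned without wild-type PBS 2 (0.024) and without wild-type NDP-MSH 2 (0.040). That of Olig2 turned to -0.0087 without wild-type NDP-MSH 2. Without each array in turn Sox10 ranged from -0.065 to 0.040 and Olig2 from -0.0087 to 0.17. The count at an unadjusted p under 0.05 in wild-type mice was 5 without wild-type NDP-MSH 2. Over all genes, 39 passed in wild-type mice, 14 with the replicate block, 15 after quantile normalization and 0 to 49 without each array in turn. Over both treatments 7 genes passed between the genotypes, 0 with the block, 49 at a signal of 8 or above, and 0 to 383 without each array in turn, the most without e/e PBS 2.

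No source used here states what arrays with the same replicate number shared beyond that number. Their deviations from the group means correlated between -0.25 and 0.44 over the 6 pairs of groups. Every group held both replicate numbers, so the replicate block could not change a fitted difference. It changed no call of a listed gene except that of Ugt8a (limma adjusted p = 0.0679).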
